A study of Ovis aries and Bos taurus with 15 samples.

Results

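The chaperones and folding enzymes of the endoplasmic reticulum were followed on 15 arrays of endothelial RNA. The genes were taken by name: HSPA5, HSP90B1, XBP1, DNAJB9, DNAJC3, HERPUD1, PDIA3, PDIA4, CALR and CANX, with every probe set that the platform annotation assigned to exactly 1 of these symbols. The rule found 15 probe sets for 9 of the 10 genes, out of 24016 probe sets tested on the array. XBP1 had no probe set under its symbol in that annotation and is not analysed here, so the set is one of chaperones without the transcription factor.

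The endoplasmic reticulum folds proteins bound for the membrane and for secretion. HSPA5 (BiP) and HSP90B1 (GRP94) hold unfolded chains, DNAJB9 and DNAJC3 are J-domain partners that work with HSPA5, CALR and CANX are lectins that bind chains carrying trimmed sugars, and PDIA3 and PDIA4 rearrange disulfide bonds. HERPUD1 is a membrane protein that helps to pass misfolded proteins on for degradation. When unfolded chains build up, the sensors IRE1, PERK and ATF6 raise the transcription of many of these genes, with XBP1 as the factor made through IRE1. Endothelial cells, which secrete matrix and clotting proteins, depend on this machinery.

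The arrays fell into 3 groups of 5. The first was bovine cells labelled BAEC, untreated as far as the labels say. The second was ovine cells labelled PAEC given the DMSO vehicle, and the third ovine PAEC given 5 µM GW9662, an irreversible antagonist of the nuclear receptor PPARγ. Both ovine groups were treated for 24 h, and all cells were grown in DMEM with serum. Nothing in the labels tells whether replicates were separate cultures or animals, and each p-value therefore rests on a spread between arrays that may be technical. All samples were read with probes designed on bovine sequence, and species, vessel, vehicle and probe match cannot be told apart between the bovine and the ovine arrays.

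Values are deposited log2 expression values, in which 1 unit is a doubling of signal, and they ran from 0.899 to 14.07. Array medians lay between 3.18 and 3.27. A mean under 3, found for 45.9% of probe sets, is called near the floor, where a low signal cannot be told from none. Of the endothelial markers PECAM1 stood at 11.7, 11.6 and 11.5 and CDH5 at 11.6, 11.5 and 11.3 in bovine, vehicle and GW9662 arrays. VWF was near the floor in all 3 (2.28, 2.31 and 2.29), CLDN5 and FLT1 were under 3 in both ovine groups, and KDR was under 3 with vehicle. The mean level of 16 endothelial markers ran from 8.32 to 8.40 on bovine arrays, 7.67 to 7.78 with vehicle and 7.62 to 7.81 with GW9662. Of the markers of other cells, all 8 epithelial and mesothelial genes, 5 of 7 smooth muscle genes (ACTA2 and MYH11 among them) and 5 of 8 fibroblast genes had means under 3 in each group. The smooth muscle genes above it were TAGLN, at 9.001 in bovine and 7.18 in vehicle arrays, and SMTN, at 5.19 and 3.91. The fibroblast genes above it were the collagens COL1A2, at 11.2 and 10.3, and COL3A1, at 10.4 in both, and THY1, at 4.38 and 4.41. The leukocyte list ran from 2.36 to 2.42 on bovine arrays and from 3.00 to 3.10 on ovine ones, where CD14 stood at 6.69 with vehicle. Of 7 markers of plasma cells, which carry a large reticulum, the 3 measured averaged between 3.26 and 3.67 on all arrays. The part of these markers in the results was not tested.

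One measure moved with the groups and with several chaperones. The log2 difference between 3′ and 5′ probe sets, averaged over 6 control transcripts, was 0.881 ± 0.043 on bovine arrays, 1.18 ± 0.085 with vehicle and 0.956 ± 0.074 with GW9662 (SD, n = 5 each). Vehicle arrays lay above both other groups without overlap (two-sided exact permutation p = 0.00794 in each comparison, the smallest that 5 against 5 arrays can give). Vehicle replicate 1 had the highest value, 1.30, and stood farthest from its group over all probe sets.

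**Figure D1:**
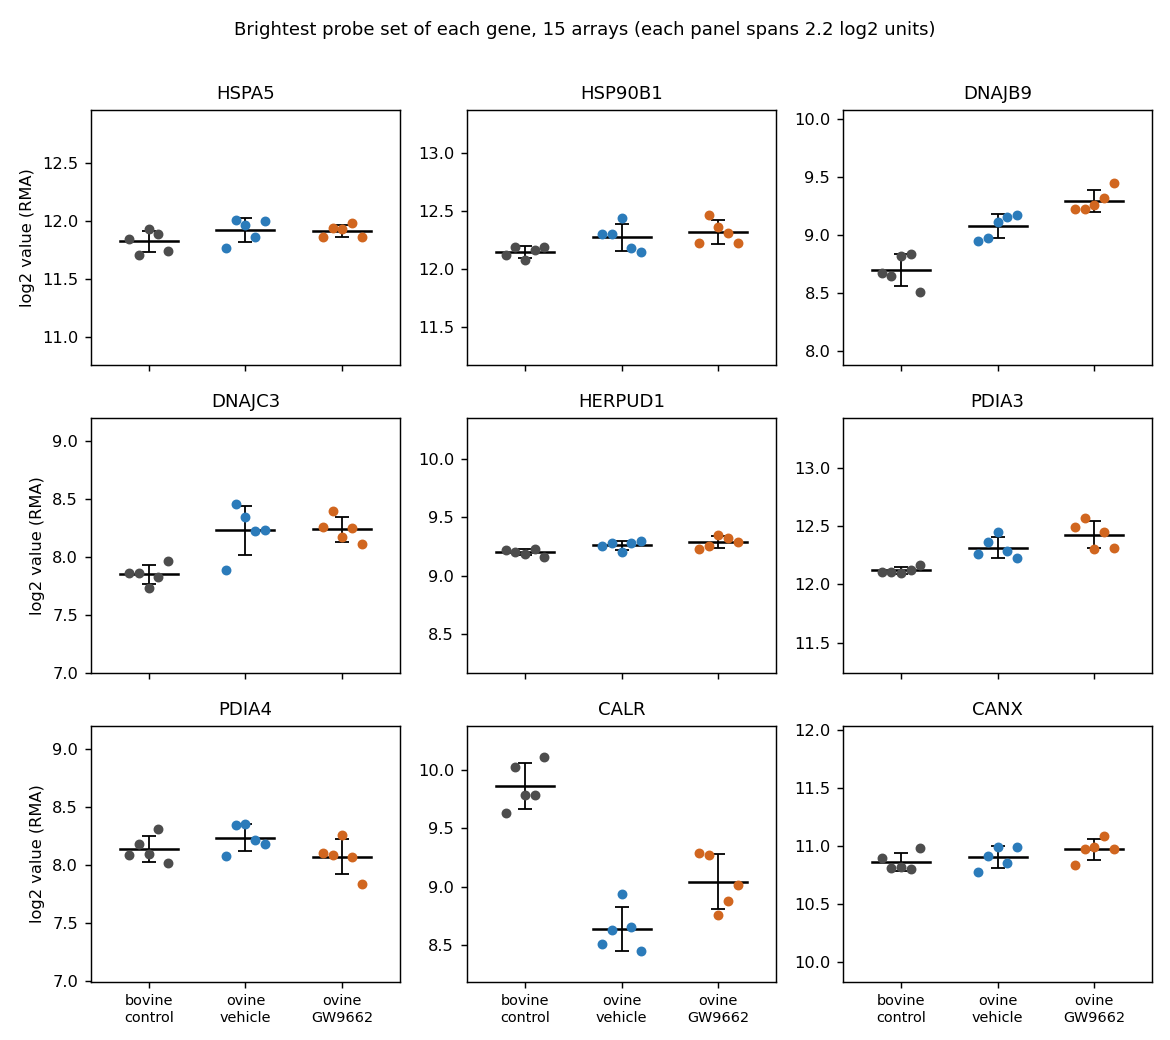
Log2 values on the 15 arrays for the brightest probe set of each of the 9 genes, one panel per gene, with bovine control, ovine vehicle and ovine GW9662 arrays side by side. Points are arrays in order of replicate number, the long bar is the group mean and the error bar 1 SD. CALR separates the groups most, at 9.87, 8.63 and 9.04, while HSPA5 lies between 11.7 and 12.0 on every array.

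The first comparison asked whether the chaperones respond when PPARγ is blocked in ovine cells. None of the 15 probe sets passed the threshold, an adjusted p under 0.05 over all probe sets in limma, and 3 were at an unadjusted p under 0.05. Over the whole array 0.183% of probe sets passed and 21.4% were at an unadjusted p under 0.05. The median difference of the 15 was 0.05 on the log2 scale, beside -0.02 over all probe sets. Of the 15 values 11 were positive, beside 35.1% of all probe sets. Once probe sets with a mean under 4 were left out, the median over the array was 0.046. These medians and signs are no result about the chaperones as a set. By the brightest probe set of each gene, CALR and DNAJB9 had the greatest differences.

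CALR, the soluble lectin chaperone that also buffers calcium in the reticulum, had 1 probe set. With vehicle it stood at 8.50, 8.63, 8.93, 8.65 and 8.44 in replicates 1 to 5. With GW9662 it stood at 9.29, 9.27, 8.76, 8.87 and 9.01. Replicates 1, 2 and 5 of GW9662 lay above all vehicle arrays and the other 2 lay within their range. The difference was 0.41 (SE 0.13, 95% interval 0.12 to 0.70, a fold of 1.33), and it did not pass (adjusted p = 0.217). After adding the 3′ minus 5′ value of each array to the fit, it was -0.11 (SE 0.13). In this comparison 0 of all probe sets passed with that covariate. In such pooled RNA, fewer cells with a transcript and less transcript per cell cannot be told apart.

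DNAJB9 (ERdj4), a J-domain protein of the lumen and a classic target of XBP1, stood at 8.95, 8.97, 9.11, 9.15 and 9.17 with vehicle. With GW9662 it stood at 9.22, 9.22, 9.26, 9.32 and 9.45. Every GW9662 array lay above every vehicle array, which was so for 1 of the 15 probe sets, beside 14.6% of all probe sets whose groups did not overlap in either direction and 1.93% with GW9662 higher. The difference was 0.22 (SE 0.060, 95% interval 0.08 to 0.36, a fold of 1.17). It did not pass in limma (adjusted p = 0.208), and over the 19 alternative fits that test against no difference it ran from 0.17 to 0.26, with an adjusted p of 0.0949 or more.

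HSPA5, HSP90B1 and HERPUD1 differed less between the ovine groups than CALR and DNAJB9 did. The brightest HSPA5 probe set stood at 11.77, 12.01, 11.97, 11.86 and 12.00 with vehicle and at 11.86, 11.95, 11.94, 11.98 and 11.87 with GW9662. The groups overlapped, and the difference was -0.004 with a 95% interval from -0.12 to 0.11, or folds of 0.923 to 1.08. HSP90B1, the HSP90 of the reticulum, stood at 12.30, 12.30, 12.44, 12.18 and 12.15 with vehicle and at 12.22, 12.47, 12.36, 12.31 and 12.23 with GW9662. Its difference was 0.04, with an interval from -0.11 to 0.20. For HERPUD1 the difference was 0.03, with an interval from -0.03 to 0.09 and folds of 0.977 to 1.07. Differences within these intervals remain possible with 5 arrays a group.

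The remaining members did not pass either. DNAJC3 (P58IPK), a co-chaperone of HSPA5, was at 0.01 (interval -0.22 to 0.24). PDIA3 (ERp57), the oxidoreductase that works with the lectins, was at 0.11 (interval -0.03 to 0.25), and CANX, the membrane-bound lectin, at 0.07 (interval -0.06 to 0.19). PDIA4 (ERp72) gave -0.17 on its brightest probe set (interval -0.35 to 0.02) and 0.24 on the next (interval -0.24 to 0.73). Adjusted p-values of the 15 probe sets ran from 0.208 to 0.962.

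**Figure D2:**
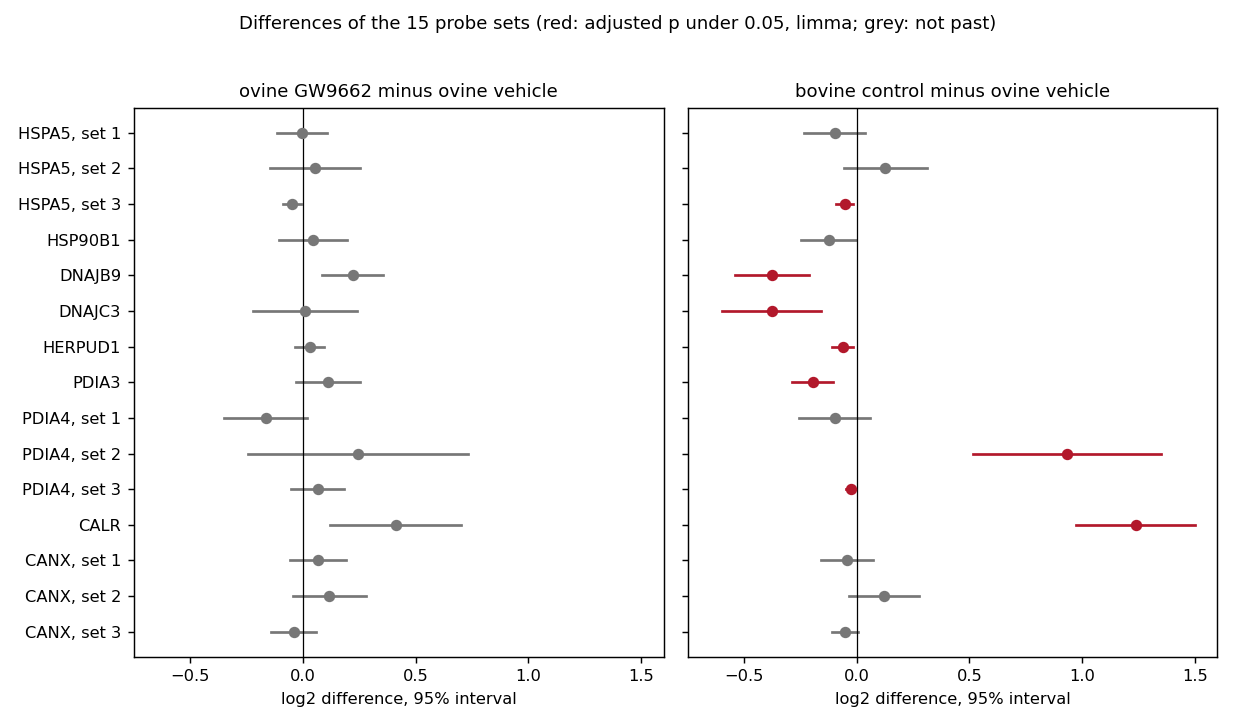
Log2 differences of the 15 probe sets with their 95% intervals, for GW9662 against vehicle on the left and bovine control against ovine vehicle on the right; sets of a gene are numbered from the brightest, and red marks an adjusted p under 0.05 in limma. No probe set is red on the left, and 8 are red on the right, from CALR at 1.24 down to DNAJC3 at -0.38.

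The second comparison set the bovine cells against the ovine cells given vehicle. The chaperones did not move as 1 block. CALR was higher in bovine cells, DNAJB9, DNAJC3, PDIA3 and HERPUD1 were lower, and HSPA5, HSP90B1 and CANX did not pass on their brightest probe sets. In all, 8 of 15 probe sets passed (53.3%), 2 higher and 6 lower, beside 45.2% of all probe sets, 15.6% higher and 29.6% lower. By the brightest probe set of each gene it was 5 of 9 genes, 1 higher and 4 lower, beside 49.2% of 9155 named genes, 21.9% higher and 27.4% lower. Both shares lie near the background and are no result about the chaperones as a set. Groups did not overlap in 5 of the 15 (53.0% of all probe sets). The balance over the array moved with the scaling: as deposited 34.4% of calls were higher in bovine cells, beside 57.9% once arrays were centred on their medians and 47.4% after a second quantile normalisation.

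CALR showed the greatest difference of the set. On bovine arrays it stood at 9.63, 10.03, 9.78, 9.79 and 10.12, against 8.50, 8.63, 8.93, 8.65 and 8.44 with ovine vehicle. All 5 bovine arrays lay above all 5 vehicle arrays, with no value between 8.93 and 9.63. The difference was 1.24 (SE 0.12, fold 2.36, 95% interval of the fold 1.97 to 2.83, adjusted p = 4.2e-05 in limma). Against the ovine GW9662 arrays, which share the bovine arrays with this comparison, it was 0.83 (SE 0.13, adjusted p = 0.00107). With the 3′ minus 5′ covariate, whose ranges in bovine and vehicle arrays do not overlap, the difference was 0.61 (SE 0.23) and did not pass (adjusted p = 0.196).

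DNAJB9 and DNAJC3, the J-domain partners of HSPA5 among the members, were both lower in bovine cells. DNAJB9 stood at 8.67, 8.64, 8.82, 8.84 and 8.51 on bovine arrays and between 8.95 and 9.17 with vehicle, without overlap. Its difference was -0.38 (SE 0.073, fold 0.770, adjusted p = 0.00395), and it was -0.60 against the GW9662 arrays (adjusted p = 1.6e-04). With the 3′ minus 5′ covariate it was -0.47 and did not pass (adjusted p = 0.282). DNAJC3 stood at 7.86, 7.86, 7.74, 7.83 and 7.97 on bovine arrays and at 7.89, 8.46, 8.35, 8.22 and 8.23 with vehicle. Vehicle replicate 1 fell within the bovine range and the other 4 vehicle arrays lay above it. The difference was -0.38 (SE 0.097, adjusted p = 0.0157) and -0.39 against GW9662 (adjusted p = 6.5e-04). With the covariate it was -0.88 (adjusted p = 0.0389).

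PDIA3 was lower in bovine cells by a small amount. It stood at 12.11, 12.10, 12.10, 12.13 and 12.17 on bovine arrays and at 12.26, 12.37, 12.45, 12.29 and 12.23 with vehicle, without overlap. The difference was -0.20 (SE 0.041, fold 0.873, adjusted p = 0.00584), and it was -0.30 against GW9662 (adjusted p = 0.00152). It passed in the 20 alternative fits that test against no difference, where it ran from -0.15 to -0.40, the latter with the 3′ minus 5′ covariate. It did not pass against a minimum fold of 1.5. CALR and PDIA3, which act together on the same glycoproteins, thus differed in opposite directions between these arrays.

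HERPUD1 differed least of the genes that passed, with bovine arrays between 9.16 and 9.23 and vehicle arrays between 9.20 and 9.29. The groups overlapped, the difference was -0.06 (SE 0.021, adjusted p = 0.0408), and the call was lost in 15 of the 20 alternative fits against no difference and against a minimum fold of 1.5. HSP90B1 was at -0.12 (SE 0.054, adjusted p = 0.0847), with bovine arrays from 12.08 to 12.19 and vehicle arrays from 12.15 to 12.44. Without vehicle replicate 5 its adjusted p was 0.0394. HSPA5 was at -0.10 (interval -0.23 to 0.04), with bovine values of 11.85, 11.71, 11.93, 11.89 and 11.75. CANX was at -0.04 (interval -0.16 to 0.07), with bovine values from 10.80 to 10.98 and vehicle values from 10.78 to 10.996.

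Where a gene had several probe sets they did not all read alike. PDIA4 had 3. The brightest was at -0.10 between bovine and vehicle arrays (SE 0.069, adjusted p = 0.259). The next was higher in bovine cells by 0.93 (SE 0.18, fold 1.91, adjusted p = 0.00444), with bovine values of 7.04, 7.24, 6.93, 7.005 and 7.21 and vehicle values of 6.35, 6.28, 6.52, 5.45 and 6.15. With the 3′ minus 5′ covariate it was 0.91 (SE 0.52) and did not pass (adjusted p = 0.449). All bovine arrays lay above all vehicle arrays on this probe set and the groups overlapped on the other. In a test chosen after these values were seen, the difference between both probe sets on each array averaged -1.05 ± 0.20 in bovine and -2.08 ± 0.40 in vehicle arrays (two-sided exact permutation p = 0.00794, the smallest possible). Because the test was chosen for that difference, its p-value adds no evidence. No direction is given for PDIA4 as a gene, since the brightest and the next probe set read differently. The third was near the floor at 2.16 and 2.19 and was called lower by 0.03.

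HSPA5 also had 3 probe sets. The brightest and the next were at -0.10 and 0.13 between bovine and vehicle arrays, and neither passed. On the latter, vehicle replicate 1 was the lowest array, at 8.98. The third, near the floor at 2.87 and 2.92, was called lower by 0.05 (adjusted p = 0.0340). The brightest CANX probe set and both dimmer ones, at 5.01 and 2.77 on bovine arrays, did not pass in either comparison. The near-floor calls of HSPA5 and PDIA4 did not pass with each array centred or after a second quantile normalisation (adjusted p of 0.365 or more), so 6 of the 8 calls rest on probe sets above the floor.

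**Figure D3:**
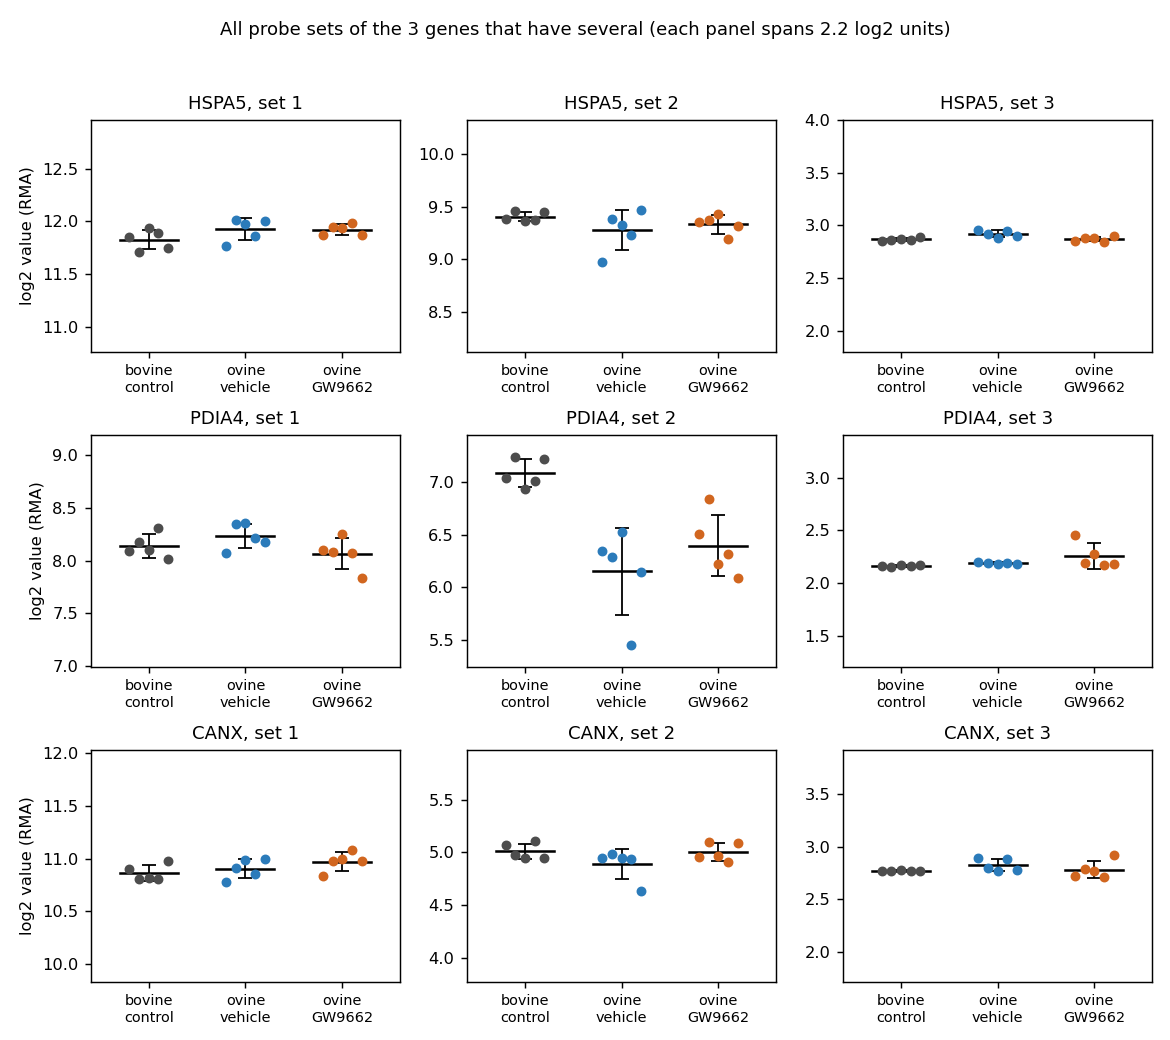
Log2 values on the 15 arrays for all probe sets of HSPA5, PDIA4 and CANX, one row per gene, from the brightest probe set on the left; points are arrays, the long bar is the group mean and the error bar 1 SD. Set 2 of PDIA4 separates bovine arrays (mean 7.08) from vehicle arrays (6.15), whereas set 1 does not (8.14 and 8.23).

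The members were also compared within groups, on each array's deviation from its group mean, with the 9 brightest probe sets and all 15 arrays. CALR and HERPUD1 ran in opposite directions: Pearson's r was -0.87 (permutation p = 0.00050, adjusted p = 0.0180 over 36 pairs) and Spearman's rho -0.79 (permutation p = 0.00376, adjusted p = 0.0677). It was -0.74 in bovine, -0.81 in vehicle and -0.99 in GW9662 arrays, of 5 arrays each, and -0.79 without the 2 arrays of most extreme HERPUD1. CALR and PDIA3 ran together, with r = 0.74 (permutation p = 0.00469, adjusted p = 0.0844), rho = 0.70 (adjusted p = 0.166) and r = 0.60 without the 2 extreme arrays. DNAJC3 and PDIA3 had r = 0.66 (permutation adjusted p = 0.178) and rho = 0.84 (adjusted p = 0.0263), with r = 0.82 without the extreme arrays. Of the 36 values of r, 25 were positive, and their median was 0.19. All points share 1 normalisation.

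The same deviations followed the 3′ minus 5′ difference in part of the set. Over the 15 arrays r with that difference was -0.81 for CALR (permutation adjusted p = 0.0102 over 9 genes), -0.76 for PDIA3 (adjusted p = 0.0322) and -0.71 for DNAJC3 (adjusted p = 0.0466). Spearman's rho was -0.85, -0.71 and -0.65 (permutation adjusted p = 0.00504, 0.0722 and 0.0722). Without the 2 arrays of most extreme 3′ minus 5′ difference, r was -0.71, -0.57 and -0.65. HERPUD1 had r = 0.59 (adjusted p = 0.113), and HSPA5 and DNAJB9 were at -0.08 and 0.01. Within groups, CALR was lower on arrays with a larger 3′ minus 5′ difference. Between groups, its lowest mean was in the vehicle arrays, which had the largest difference. PDIA3 and DNAJC3 shared the relation within groups, while between groups their lowest means were in the bovine arrays. Vehicle arrays did not overlap with either other group on this measure. Its part in the group differences therefore cannot be told apart from that of the group, and was not tested.

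**Figure D4:**
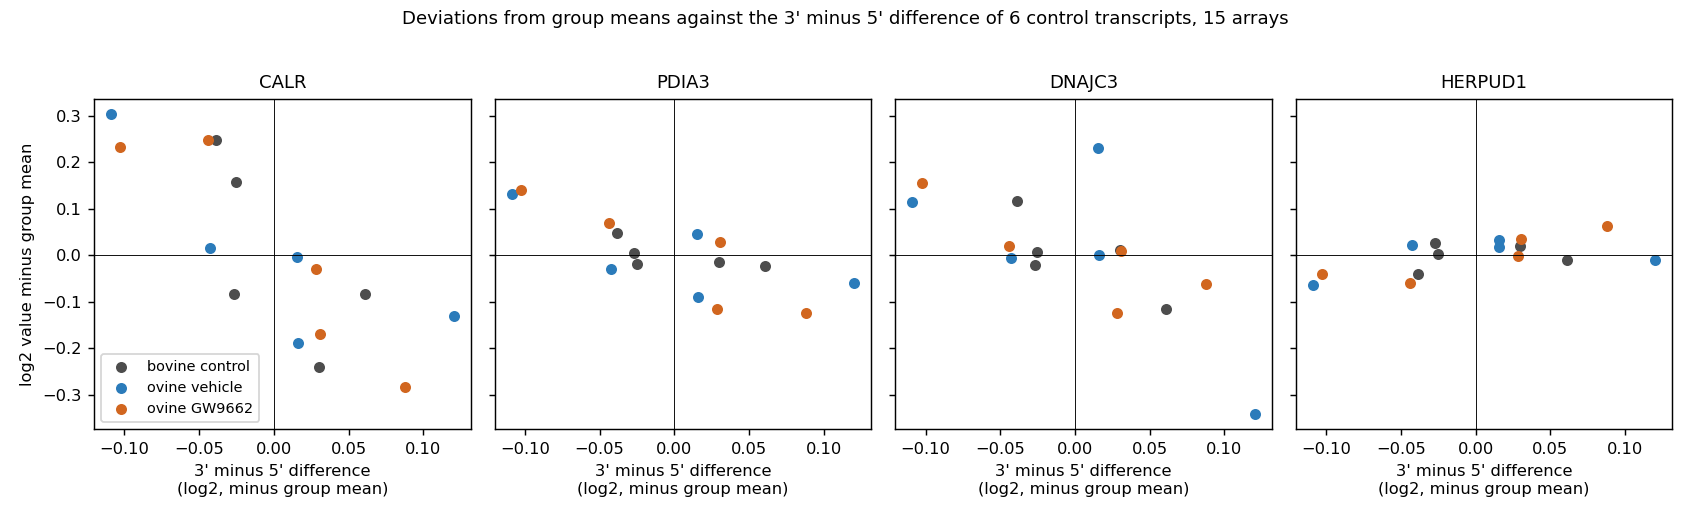
Deviation of each array from its group mean for CALR, PDIA3, DNAJC3 and HERPUD1 (vertical, log2) against the deviation of the 3′ minus 5′ difference (horizontal, log2), with points coloured by group, 15 arrays. CALR slopes down (r = -0.81) and HERPUD1 slopes up (r = 0.59).

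By the rule for likeness, 4 named genes of 4371 with a mean of at least 6 had deviations most like those of HSPA5 over the 15 arrays. They were CDH11 (r = 0.91), NMT1 (0.86), TP53RK (0.84) and VEZT (0.83). None is one of the 9 members, whose r with HSPA5 was at most 0.46 (PDIA4). These values describe these arrays only.

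The rest of the folding and quality-control machinery was read through 8 lists of 190 gene names, of which 149 were measured. With GW9662 none of the 149 passed in limma, 31 were at an unadjusted p under 0.05, and the median was -0.02, beside -0.01 over all named genes with 0.218% of them past the threshold and 20.1% at an unadjusted p under 0.05. Between bovine and vehicle arrays 27 were higher, 58 lower and 64 did not pass (57.0% past, beside 49.2% of named genes), with a median of -0.10 beside -0.02. Of all named genes 21.9% were higher and 27.4% lower in bovine cells, the background for the counts of each list below. No lists were tested as sets, and these counts are no result about a list.

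Among 20 further luminal chaperones, 3 were higher and 11 lower in bovine cells, with a median of -0.14. HYOU1, a large HSP70 relative that resets HSPA5, was lower by 0.75 (6.59 against 7.34, SE 0.055, adjusted p = 8.2e-06), and LRPAP1, which escorts LDL receptor proteins, was lower by 0.85 (adjusted p = 4.7e-06). SERPINH1 (HSP47), the collagen chaperone, was higher by 0.74 (10.5 against 9.74, adjusted p = 6.2e-06), and CNPY2 by 0.96 (adjusted p = 1.1e-05). With GW9662, HYOU1 was at -0.16 (adjusted p = 0.121) and DNAJB11, a J-domain partner of HSPA5, at -0.06 (adjusted p = 0.217). In that comparison 17 of the 20 values were negative, where 39.3% of all named genes had positive values. Of the 20, 0 passed and 8 were at an unadjusted p under 0.05, beside 20.1% of all named genes. The list was not tested as a set.

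Among 16 further oxidoreductases 3 were higher and 7 lower in bovine cells. ERO1A, which reoxidises the protein disulfide isomerases, had the greatest difference of all listed genes, at 4.43 in bovine and 7.91 in vehicle arrays (log2 difference -3.48, SE 0.17, adjusted p = 5.9e-07). QSOX1, a sulfhydryl oxidase, was lower by 1.13, TXNDC11 by 1.15 and the selenoprotein SELENOM by 1.20 (adjusted p from 9.1e-07 to 4.1e-05). These 4 calls also passed with the 3′ minus 5′ covariate, where SELENOM was at -1.92. With GW9662, ERO1A was at 0.38 (SE 0.090, adjusted p = 0.166) and TMX4 at 0.47 (SE 0.16, adjusted p = 0.217). In that comparison the covariate left ERO1A at 0.31 (SE 0.18) and TMX4 at 0.04 (SE 0.26).

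Of 14 listed genes of the response to unfolded chains, among them sensors and transcription factors, 7 were measured. ERN1, which encodes IRE1, and ATF6 had no probe set under their symbols in the annotation. Bovine cells had 3 higher and 3 lower. MBTPS1, the protease that cuts ATF6, was lower by 0.68 (9.36 against 10.03, adjusted p = 1.7e-07), NFE2L1 by 0.42 (adjusted p = 7.8e-05) and CREB3, a factor related to ATF6, by 0.30 (adjusted p = 0.00488). CREB3L2, of the same family, was higher by 0.71 (adjusted p = 4.1e-04). Fitted with the 3′ minus 5′ covariate, CREB3L2 was at 0.37 and CREB3 at -0.31, and neither passed (adjusted p = 0.511 and 0.430). With GW9662, MBTPS1 was at -0.07 (adjusted p = 0.254) and EIF2AK3, which encodes PERK, at 0.24 (SE 0.12, adjusted p = 0.257).

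In the PERK and ATF4 branch, 3 of 13 were higher and 4 lower in bovine cells. ATF3, a stress-induced factor, was lower by 1.94 (8.45 against 10.4, adjusted p = 1.4e-07) and EIF2S1, the initiation factor subunit that PERK phosphorylates, by 0.47 (adjusted p = 4.9e-05). VLDLR was higher by 0.52 and CEBPG by 0.60 (adjusted p = 7.3e-06 and 0.00108), while of the other VLDLR probe sets 1 was called higher by 0.85 and 2, at means of 2.25 and 3.07, lower by 0.03 and 0.12. CEBPG, fitted with the 3′ minus 5′ covariate, was at 0.11 and did not pass (adjusted p = 0.950). With GW9662, ATF5 was at 0.74 (4.78 against 4.04, SE 0.16, adjusted p = 0.131, and 0.0239 with all 15 arrays in 1 fit). Its groups did not overlap, as for 1.90% of named genes with GW9662 higher. Adding the 3′ minus 5′ covariate left ATF5 at 0.30 (SE 0.26). In that fit 0 of all probe sets passed between GW9662 and vehicle, so not passing there says nothing about ATF5 itself. In the main fit ATF4 was at -0.23 (SE 0.11, adjusted p = 0.248).

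In the degradation pathway that HERPUD1 serves, 5 of 21 genes were higher and 9 lower in bovine cells. The lower ones included ERLIN2 (-0.81), the ubiquitin-conjugating enzyme UBE2J1 (-0.70), DERL2 (-0.49) and SEL1L (-0.45), the last 2 being parts of the membrane complex through which proteins are pulled out, with adjusted p from 5.2e-04 to 7.5e-04. With the 3′ minus 5′ covariate ERLIN2 was at -0.41, DERL2 at -0.50 and SEL1L at -0.45, and these did not pass (adjusted p = 0.552, 0.237 and 0.266), while UBE2J1 was at -1.07 and passed (0.0357). With GW9662, HERPUD2, a relative of HERPUD1, was at 0.26 (8.93 against 8.68, SE 0.042) and UBXN4, which recruits the VCP ATPase, at 0.25 (SE 0.057). Neither passed (adjusted p = 0.0699 and 0.149). The groups did not overlap for either, as for 1.90% of named genes with GW9662 higher. HERPUD2 passed with each array centred (adjusted p = 0.0356), with all 15 arrays in 1 fit (0.0176) and without GW9662 replicate 3 (0.0467). UBXN4 passed with all 15 arrays in 1 fit (0.0496). In the fit with the 3′ minus 5′ covariate, where 0 of all probe sets passed, HERPUD2 was at 0.17 (SE 0.076) and UBXN4 at 0.05 (SE 0.075).

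Genes that feed chains into the reticulum and carry them out differed in both directions. Of 21 translocon and signal peptide genes, 4 were higher and 6 lower in bovine cells: the signal peptidase subunits SPCS2 and SPCS3 were higher by 0.31 and 0.63, and SEC62 and SRP14 lower by 0.52 and 0.42 (adjusted p from 4.0e-05 to 0.00143). When the covariate was added, SPCS3 was at 0.11 and SEC62 at -0.58, and neither passed (adjusted p = 0.969 and 0.0700), while SRP14 was at -0.64 and passed (0.0140). Of 24 N-glycosylation genes 2 were higher and 9 lower. The 2 catalytic subunits of oligosaccharyltransferase differed in opposite directions, with STT3A lower by 0.48 and STT3B higher by 0.54 (adjusted p = 1.3e-04 and 2.8e-04), and ALG6 and ALG11, which build the sugar precursor, were lower by 0.96 and 0.30 (adjusted p = 1.6e-04 and 2.9e-04). With the covariate none of these 4 passed (adjusted p from 0.123 to 0.536), and STT3B was at 0.23. Against the GW9662 arrays, without the covariate, STT3B was at 0.24 and passed in limma (adjusted p = 0.00637). Against vehicle, another STT3B probe set, at 0.12, and another of ALG11, at 0.07, did not pass. Of 27 genes of transport to the Golgi 4 were higher and 9 lower, with the coat subunit ARCN1 higher by 0.58, TMED7 by 0.09, and LMAN2 and COPB2 lower by 0.55 and 0.27 (adjusted p from 2.0e-05 to 0.00293). With the covariate ARCN1, COPB2 and TMED7 did not pass (adjusted p = 0.0695, 0.252 and 0.587). TMED7 did not pass against the GW9662 arrays either (0.03, adjusted p = 0.254) or with dim probe sets left out (0.106), and its other probe set was at -0.09 (adjusted p = 0.179).

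With GW9662 the leading genes of these 3 lists did not pass. SEC62 was at 0.21 and SSR2, of the translocon-associated complex, at -0.11 (adjusted p = 0.212 and 0.217). STT3B was at 0.30 (SE 0.072, adjusted p = 0.169), and MLEC, near the floor, at -0.06 (adjusted p = 0.217). SAR1B, dim at 3.69 against 3.34, was at 0.35, and KDELR1, the receptor that returns HSPA5 and CALR to the reticulum, at -0.21 (9.48 against 9.69, adjusted p = 0.217 each). KDELR1 did not overlap between the groups, with GW9662 lower, as for 9.71% of named genes. After adding the 3′ minus 5′ covariate, STT3B was at 0.10, SAR1B at 0.02 and KDELR1 at -0.10. In the same fit, where 0 of all probe sets passed, SEC62 was at 0.16, SSR2 at -0.11 and MLEC at -0.05. Other probe sets of STT3B, SEC62 and SAR1B, at 0.06, 0.10 and 0.28 without the covariate, did not pass.

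**Figure D5:**
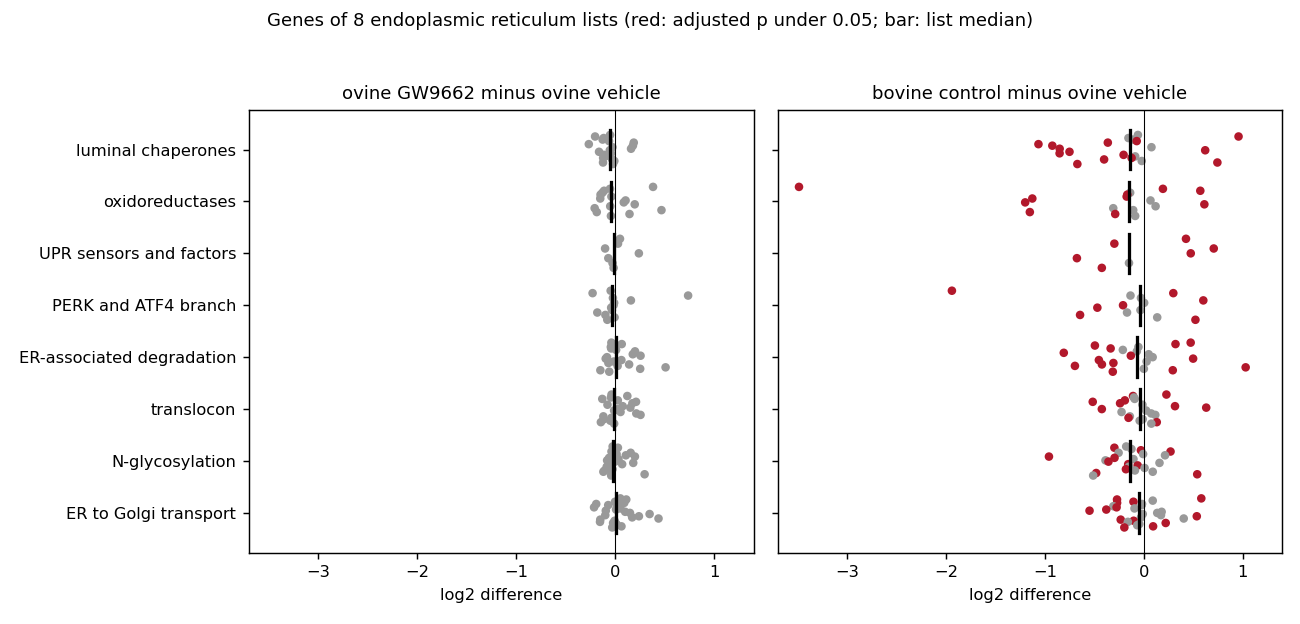
Log2 differences of 149 genes in 8 lists of endoplasmic reticulum machinery, for GW9662 against vehicle on the left and bovine control against ovine vehicle on the right; each point is the brightest probe set of a gene, red marks an adjusted p under 0.05 in limma and the black bar is the list median. No gene is red on the left, and 85 are red on the right, with ERO1A farthest out at -3.48.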

How the data were processed

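Each sample's deposited column holds log2 expression values of 1 array. The authors computed them with RMA, for which the submitters' processing notes give no version. That method subtracts background, gives all arrays 1 distribution and combines the probes of a set into a single value. The 112 control probe sets were left out, which left 24016: 13292 with 1 gene symbol in the platform annotation, 86 with several and 10638 with none. Each comparison had its own fit of 10 arrays in limma 3.58.1 (R 4.3.3; lmFit, then eBayes). P-values were adjusted by Benjamini-Hochberg over 24016 probe sets, and standard errors and 95% intervals come from the same fit. For list genes and correlations the brightest probe set over 15 arrays stood for the gene. Correlations used 100000 permutations within groups. Arrays record no depth, so precision is set by how many there are.

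Members and lists were chosen with earlier results of these data known. The text names all members, and per list up to 4 genes past the threshold of smallest p, or 2 where none passed. The likeness rule, written for XBP1 and HSPA5, could be run for HSPA5 alone. Fits were tested on simulated data. Alternatives were arrays centred on their medians, quantile normalisation repeated, probe sets with a mean under 4 left out, trended robust variance, array weights, all 15 arrays in 1 fit, a replicate block, single arrays left out, 1 probe set per gene, a 3′ minus 5′ covariate, a minimum fold of 1.5, GW9662 in place of vehicle arrays and the mean over a gene's probe sets.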

Additional observations from a re-analysis of the deposited data

Results flagged for a closer look

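Among 48 groups of 5 arrays checked (15 probe sets and the 3′ minus 5′ difference, in 3 groups), 1 array stood apart from its group by Dixon's criterion, which chance alone meets in about 1 group of 20. It was vehicle replicate 5 on the second brightest CANX probe set, at 4.63, with the nearest vehicle array at 4.93 and the highest at 4.98. On the brightest CANX probe set the same array stood at 10.996, the highest of its group.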

How the results depend on the processing

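With GW9662, 0 member probe sets passed under every alternative run. With the 3′ minus 5′ covariate, the replicate block or a minimum fold of 1.5, 0 of all probe sets passed. The count of list genes was 0, but 1 with each array centred (HERPUD2), 3 with all 15 arrays in 1 fit, and 0 to 1 when single arrays were left out, which was added after seeing the data; the 1 was HERPUD2 without GW9662 replicate 3. Between bovine and vehicle arrays the count of 8 member probe sets was 5 after centring, after a second quantile normalisation, with dim probe sets left out and with 1 probe set per gene. It was 2 with the 3′ minus 5′ covariate, 1 with a minimum fold of 1.5 and 5 to 7 when single arrays were left out. It was 5 without bovine replicate 1, 2, 3 or 4 and without vehicle replicate 2 or 4. Of the 149 measured list genes 20 passed with the covariate, beside 85 in the main fit. The share of all probe sets that passed fell as well. It was 45.2% in the main fit, 26.9% after centring and 28.3% after a second quantile normalisation. With the covariate it was 6.67%, and with a minimum fold of 1.5 it was 5.38%.

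Same-numbered arrays did not deviate together: r ran from -0.19 to 0.17 for GW9662 and vehicle and from -0.10 to 0.09 for bovine and vehicle, and 0 of 5 correlated best with their own number in either. With the replicate block 4 of 15 member probe sets passed between bovine and vehicle arrays (DNAJC3 had an adjusted p of 0.0522 and HERPUD1 of 0.105) and 0 with GW9662, where 0 of all probe sets passed and 3205 were at an unadjusted p under 0.05.

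Signs turned in differences that had not passed, and in 2 near-floor calls. Probe sets of a gene are numbered here from the brightest. For GW9662 against vehicle, HSPA5 was 0.039 after centring, 0.0028 after the second quantile normalisation and 0.00085 as the mean over probe sets, and ran from -0.042 to 0.018 when single arrays were left out. DNAJC3 was -0.048 after quantile normalisation, -0.039 with array weights and -0.32 with the covariate, and ran from -0.076 to 0.067 with single arrays left out. With the covariate HSP90B1 was -0.057, PDIA3 -0.12, CALR -0.11, PDIA4 set 2 -0.031 and HSPA5 set 2 -0.11. The last was -0.010 with array weights and ran from -0.020 to 0.10 with single arrays left out. HERPUD1 was -0.015 after quantile normalisation, PDIA4 0.048 as the mean over probe sets, and CANX set 3 0.0011 after centring, 0.0014 after quantile normalisation and 0.016 with the covariate. For bovine against vehicle, PDIA4 was 0.069 against the GW9662 arrays and 0.27 as the mean over probe sets (adjusted p = 0.0140), where CANX was 0.0085. With the covariate HSPA5 sets 2 and 3 were -0.20 and 0.00037, and CANX set 3 0.038. PDIA4 set 3 was 0.0089 after centring. Among calls with GW9662 over the array, 79.5% were higher as deposited, 91.0% after centring and 62.3% after the second quantile normalisation. The cause of these shifts was not tested. The array number limits what small differences could be seen, and values near the floor carry no order.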
